A study of Mus musculus with 8 samples.

Results

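The troponins, tropomyosins and titin of the heart were described across 4 groups of mouse heart libraries. The group of genes was chosen by name and held 10 of the 54532 genes of the deposited table: Tnni3, Tnni1, Tnnt2, Tnnt1 and Tnnc1 of the troponin complex, Tpm1, Tpm2, Tpm3 and Tpm4 of the tropomyosin family, and Ttn, which encodes titin. All 10 were found, each on a single row. Of these, 9 passed the filter on low values (a floor of 0.5 FPKM and of 10 reads, reached by 2 or more libraries) and were tested. Tnni1 reached 0.5 FPKM in 1 library only and was not tested.

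Troponin and tropomyosin form the calcium switch of the thin filament. Tropomyosin lies along actin and blocks myosin, troponin T ties the complex to tropomyosin, troponin I holds it in the blocking place, and calcium binding by troponin C releases it. Titin is a giant spring that runs from the Z-disc to the M-band of the sarcomere and sets the passive stiffness of heart muscle. The adult mouse heart is known to use Tnni3, Tnnt2, Tnnc1 and Tpm1, while Tnni1 is the troponin I of the fetal heart and of slow skeletal muscle.

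RNA was sequenced from heart tissue of C57BL/6 mice in 4 groups of 2 libraries: wild type after sham surgery (WT sham), wild type after TAC (WT TAC), Piezo1-Cko after sham surgery (Cko sham) and Piezo1-Cko after TAC (Cko TAC). TAC commonly stands for transverse aortic constriction, which loads the left ventricle with pressure, and Piezo1 codes for an ion channel opened by mechanical force. Per the labels, RNA was taken up in Trizol and 1 ug of total RNA went into a NEBNext Ultra library. The exons and cells touched by the Piezo1-Cko allele, the chambers taken, the age and sex of the mice and the time after surgery are not given in the labels. Nor do the labels tie the libraries to separate animals: the p-values rest on the spread between libraries alone, and that spread may be technical.

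The values are FPKM (fragments per kilobase of gene length, on a library size scaled between samples), which were turned back into 15574769 to 17313084 whole reads per library, 17.6% to 24.4% of them mitochondrial. The first principal component of all tested genes (51.0% of the variance) separated TAC from sham. WT sham replicate 1 and WT TAC replicate 1 stood apart from the other 6 libraries on the second (16.8%), at 26.5 and 28.6 against -20.1 to -2.24. WT sham replicate 1 also held atrial transcripts: Myl7 was at 394 FPKM there and at 0 to 0.443 in the others. Piezo1 itself (ENSMUSG00000014444) had 2.35 and 3.09 FPKM in wild-type sham libraries against 3.83 and 3.23 in Piezo1-Cko sham libraries, and 5.38 and 5.83 against 5.24 and 3.89 after TAC. No drop in the Piezo1-Cko libraries was detectable (limma adjusted p = 0.774 under sham and 0.652 under TAC). A total over the whole gene includes exons that the allele may leave in place and cells that may keep it whole, so it does not check the genotype labels.

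The 4 genes of the adult heart switch stood far above the other 6 in every library. Averaged over the 8 libraries, Tnnc1 was at 2324 FPKM (range 1526 to 3135), Tnni3 at 2298 (920.3 to 4007), Tpm1 at 1285 (956 to 1560.5) and Tnnt2 at 892 (555 to 1294). Tnnc1 and Tnni3 overlapped in range, as did Tpm1 and Tnnt2. Tpm4 followed at 124 FPKM (81.9 to 179), clear of its neighbours on both sides. Tpm2 at 25.2, Ttn at 17.5 and Tpm3 at 15.1 FPKM overlapped one another, Tnnt1 at 5.95 overlapped Tpm3, and Tnni1 at 0.169 (0.0315 to 0.625) lay below all. Ttn gave 26463 to 42194 reads per library, between 0.158% and 0.247% of all reads, spread over a listed length of 116825 bases. Together the 10 genes took 2.64% to 3.13% of the reads in the sham libraries and 1.85% to 2.37% in the TAC libraries.

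**Figure D1:**
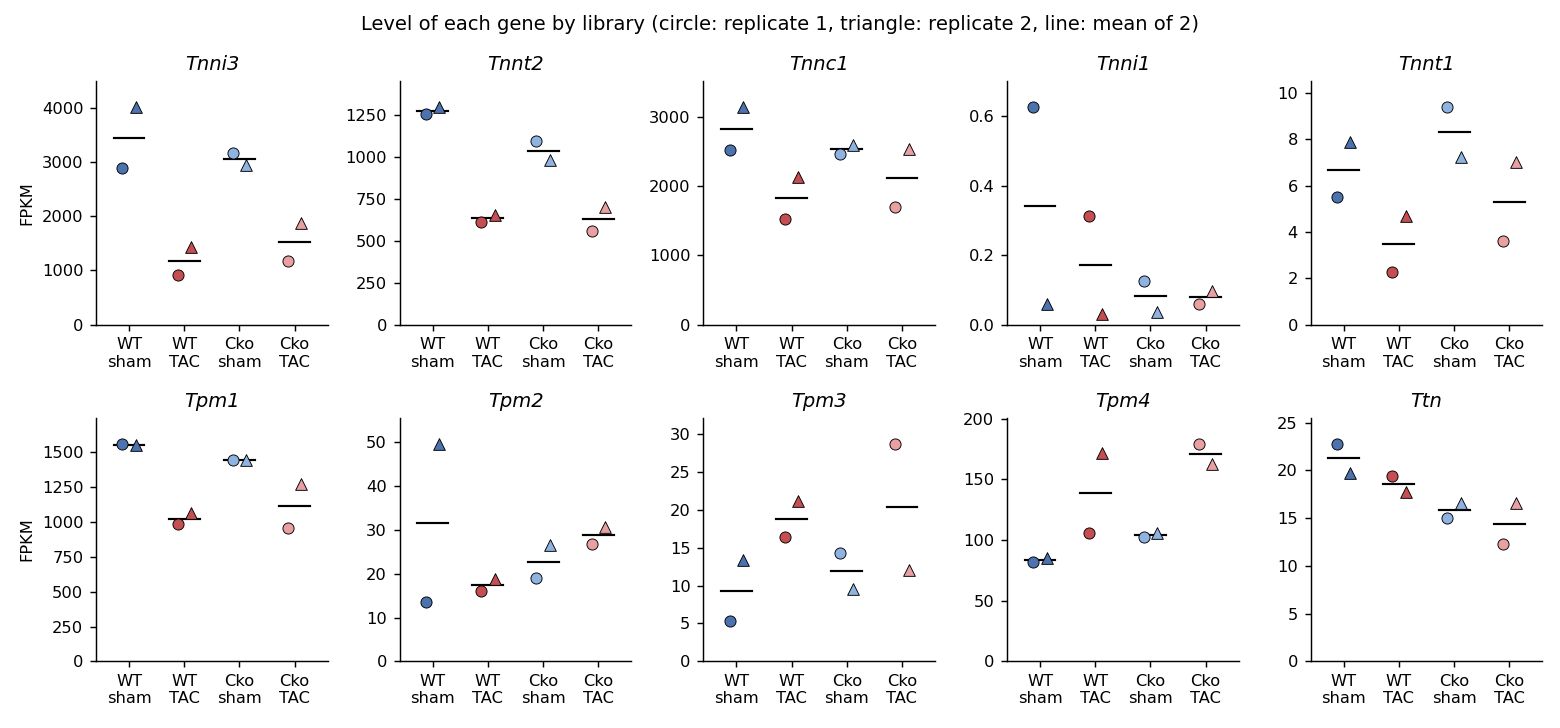
Each panel plots FPKM (y axis, from 0, a different scale per gene) of 1 gene against the 4 groups, with circles for replicate 1, triangles for replicate 2 and lines for the mean of both. Tnni3, Tnnt2 and Tpm1 lie lower in all 4 TAC libraries than in any sham library, Tpm4 lies higher, and Tnni1 is highest in replicate 1 of both wild-type groups.

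The order of levels between genes depended on the gene length. For all 10 genes the listed length equalled the union of all annotated exons in GENCODE, which is 1.04 times the length of the principal transcript for Tpm4, 1.16 for Ttn, 1.44 for Tnnc1, 2.26 for Tnni3, 3.42 for Tpm1 and 6.46 for Tnnt2. Per kilobase of principal transcript, Tnnt2 came first at 5761 on the same scale, before Tnni3 at 5198, Tpm1 at 4389 and Tnnc1 at 3356. The 4 genes of the adult switch were the top 4 under both lengths. Comparisons of 1 gene between libraries do not involve its length.

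The genes lie on 8 chromosomes of GRCm38, with 2 close pairs. Tnni3 (ENSMUSG00000035458, chromosome 7, 4518305 to 4524229, minus strand) and Tnnt1 (ENSMUSG00000064179, 4504570 to 4516382, minus strand) are 1922 bases apart, and Tnni1 (ENSMUSG00000026418, chromosome 1, 135779434 to 135810989, plus strand) and Tnnt2 (ENSMUSG00000026414, 135836354 to 135852260, plus strand) are 25364 bases apart. Tnnc1 is on chromosome 14 (ENSMUSG00000091898, 31208312 to 31211729, plus strand), where its span overlaps that of Nisch on the other strand with no shared exon bases. Tpm1 is on chromosome 9 (ENSMUSG00000032366, 67022590 to 67049406, minus strand), Tpm2 on chromosome 4 (ENSMUSG00000028464, 43514711 to 43523765, minus strand), Tpm3 on chromosome 3 (ENSMUSG00000027940, 90072649 to 90100902, plus strand), Tpm4 on chromosome 8 (ENSMUSG00000031799, 72134975 to 72153142, plus strand) and Ttn on chromosome 2 (ENSMUSG00000051747, 76703980 to 76982547, minus strand). Tnni3 shares 86 exon bases with Dnaaf3, which was at 1.14 to 4.55 FPKM. Tpm4 shares 134 exon bases with the antisense gene Gm26586, at 0.0663 to 0.325 FPKM. Tpm3 has 5 annotated pseudogenes of at least 90% identity, all listed at 0, and Tpm4 has 1, at no more than 0.570 FPKM.

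Stretches of sequence just before the RefSeq transcription start (GRCm38.p6) are shown for 4 genes that the results turn on: Tnni3 and Tnnt2, which passed the test in wild type, their partner Tnnc1, which did not, and Ttn, which had the smallest fold change in each genotype. Each is 250 bases long except that of Tnni3, which was ended at 166 bases because an annotated exon lies beyond it (the RefSeq start of Tnni3 is inside the gene span given above). Capitals mark matches, on either strand, to the MCAT element (CATTCC, in 12.6% of 32851 RefSeq windows of 250 bases), the GATA element (GATAA, 22.6%), the E-box (CANNTG, 66.2%) and the MEF2 site (2.92%), elements known from muscle gene promoters.
Tnni3, chr7:4522529-4522694, minus strand: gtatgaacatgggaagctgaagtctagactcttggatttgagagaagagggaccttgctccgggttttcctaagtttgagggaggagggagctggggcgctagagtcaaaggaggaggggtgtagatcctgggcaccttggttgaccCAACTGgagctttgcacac
Tnnt2, chr1:135836084-135836333, plus strand: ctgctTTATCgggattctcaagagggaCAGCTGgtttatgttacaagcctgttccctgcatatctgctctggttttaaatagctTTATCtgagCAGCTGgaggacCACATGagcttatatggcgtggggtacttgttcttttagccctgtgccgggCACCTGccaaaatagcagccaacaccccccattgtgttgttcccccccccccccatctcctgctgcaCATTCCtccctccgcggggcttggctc
Tnnc1, chr14:31208062-31208311, plus strand: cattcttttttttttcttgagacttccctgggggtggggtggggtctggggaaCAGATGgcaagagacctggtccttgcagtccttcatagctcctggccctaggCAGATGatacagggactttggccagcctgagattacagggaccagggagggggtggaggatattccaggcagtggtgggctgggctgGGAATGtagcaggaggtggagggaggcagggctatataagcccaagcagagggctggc
Ttn, chr2:76982548-76982797, minus strand: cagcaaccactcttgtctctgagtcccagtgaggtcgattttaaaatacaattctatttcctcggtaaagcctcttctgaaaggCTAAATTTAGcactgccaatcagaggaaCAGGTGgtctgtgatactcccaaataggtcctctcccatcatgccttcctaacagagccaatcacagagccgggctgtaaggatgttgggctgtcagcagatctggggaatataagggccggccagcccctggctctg

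In these stretches, counting from the start site, the MCAT element was found in Tnnt2 (at -27) and in Tnnc1 (at -58), and GATA elements in Tnnt2 alone (at -245 and -166). The MEF2 site was found in Ttn (at -166). All 4 held an E-box, with 4 of them in Tnnt2, 2 in Tnnc1 and 1 each in Tnni3 and Ttn. No window of the 10 genes held the CArG box, which 1.47% of all windows hold. A match is a run of letters and not a shown binding site, and the measured values below do not bear on any factor.

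Troponin I, the inhibitory subunit, had the largest difference of the group after TAC. Tnni3 read 2880.0 and 4007 FPKM in wild-type sham libraries against 920.3 and 1433 after TAC, and 3158 and 2946 in Piezo1-Cko sham libraries against 1169.7 and 1869 after TAC. All 4 TAC libraries were below all 4 sham libraries. In wild type it fell 2.96-fold (log2 fold change -1.56, SE 0.312, adjusted p = 0.0256, by limma with Benjamini-Hochberg adjustment over 13928 genes, threshold 0.05). In bulk tissue, fewer cells of a type and less RNA per cell cannot be told apart.

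The wild-type call of Tnni3 did not hold in every fit. It was lost without WT sham replicate 1 or 2, WT TAC replicate 1, or Cko sham replicate 1 or 2. It was also lost without both wild-type libraries that stand apart, a fit with 1 library in each wild-type group. The log2 fold change was -1.88 to -1.24 with 1 library left out and -1.48 without both that stand apart. Without a Cko sham library it stayed at -1.56, so there only the estimate of the spread changed. In Piezo1-Cko the log2 fold change was -1.04 (SE 0.312, adjusted p = 0.114), which did not pass. Averaged over both genotypes Tnni3 fell 2.47-fold (log2 fold change -1.30, SE 0.220, adjusted p = 0.00840), and this passed whichever of the 8 libraries was left out (adjusted p up to 0.0407).

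Troponin T, the subunit that anchors the complex on tropomyosin, was also lower after TAC, with a narrower spread than Tnni3. Tnnt2 read 1251 and 1294 FPKM in wild-type sham libraries against 613 and 651 after TAC, and 1093 and 978 in Piezo1-Cko sham libraries against 555 and 698 after TAC. The TAC libraries again lay below every sham library. Tnnt2 fell 2.01-fold in wild type (log2 fold change -1.01, SE 0.172, adjusted p = 0.0196) and 1.83-fold on average (log2 fold change -0.87, SE 0.122, adjusted p = 0.00531). The average passed whichever library was left out (adjusted p up to 0.0337). The wild-type call was lost without the same 5 libraries as that of Tnni3 and without both that stand apart. Its log2 fold change was -1.05 to -0.97 with 1 library left out and -0.99 without both that stand apart. In Piezo1-Cko the log2 fold change was -0.73 (SE 0.172, adjusted p = 0.0755).

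Troponin C, the calcium sensor, overlapped between surgeries. Tnnc1 read 2519 and 3135 FPKM in wild-type sham libraries against 1526 and 2133 after TAC, and 2459 and 2592 in Piezo1-Cko sham libraries against 1691 and 2537 after TAC. Both WT TAC libraries were below both WT sham libraries, whereas Cko TAC replicate 2 lay between the Cko sham libraries. The log2 fold change was -0.64 in wild type (adjusted p = 0.138), -0.29 in Piezo1-Cko (0.577) and -0.46 on average (SE 0.187, 0.107), none passing.

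The slow skeletal forms were scarce. Tnnt1, the slow skeletal troponin T, read 5.49 and 7.90 FPKM in wild-type sham libraries against 2.27 and 4.70 after TAC, and 9.39 and 7.23 in Piezo1-Cko sham libraries against 3.59 and 7.01 after TAC, on 93 to 317 reads. Within each genotype its TAC libraries were below its sham libraries, but no test passed with all 8 libraries (log2 fold change -0.90 with adjusted p = 0.144 in wild type, -0.66 with 0.359 in Piezo1-Cko, -0.78 with 0.0701 on average). With 1 library left out, the wild-type value ran from -1.36 to -0.45, and the average passed without WT TAC replicate 2 (adjusted p = 0.0310) or Cko TAC replicate 2 (0.0357). Beside it on chromosome 7, Tnni3 had the same sign in all 3. Tnnt1 amounted to 0.370% to 1.00% of the Tnnt2 level per listed length and to 0.123% to 0.334% per principal transcript.

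Tnni1, the fetal and slow skeletal troponin I, gave 32 and 3 reads in wild-type sham libraries against 21 and 2 after TAC, and 7 and 2 in Piezo1-Cko sham libraries against 4 and 6 after TAC. The 2 highest libraries were the wild-type replicates 1 that stand apart, one after each surgery. In any library Tnni1 was at most 0.0341% of the Tnni3 level per listed length and at most 0.0472% per principal transcript. Pvalb, a calcium buffer of fast muscle, was at 2.91 and 1.65 FPKM in those same 2 libraries and at no more than 0.125 in the other 6. Mylpf, Tnni2 and Tnnt3, also of the fast skeletal list, did not share this pattern. Mylpf was at 1.72 and 0.152 FPKM in those 2 libraries and at 0.409 to 2.39 in the other 6. Tnni2 was at 0.423 and 0.323 against 0.464 to 1.05, and Tnnt3 at 0.0889 and 1.19 against 0.0825 to 0.579. The fast skeletal list as a whole (9 genes, Tnnc2 and Myh4 at 0 throughout) summed to 4.10 to 5.41 FPKM in WT sham, 2.22 to 3.45 in WT TAC, 2.94 to 3.30 in Cko sham and 1.51 to 2.42 in Cko TAC. Its part in the Tnni1 reads was not tested.

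Tpm1, the striated tropomyosin of the adult heart, was nearly equal within each sham pair. It read 1560.5 and 1549.9 FPKM in wild-type sham libraries against 983 and 1064 after TAC, and 1446 and 1445 in Piezo1-Cko sham libraries against 956 and 1272 after TAC. Each TAC library was below each sham library. Tpm1 fell 1.41-fold on average (log2 fold change -0.50, SE 0.130, adjusted p = 0.0307). That call held in only 2 of the 8 fits with 1 library left out, those without WT TAC replicate 2 or Cko TAC replicate 2 (adjusted p up to 0.108 in the other 6), and it was lost without both libraries that stand apart (0.116), when low genes were kept (0.0566) and under scaling to total reads (0.0955). By genotype the log2 fold change was -0.60 in wild type (adjusted p = 0.0672) and -0.39 in Piezo1-Cko (0.269).

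Tpm4, a cytoskeletal tropomyosin of non-muscle cells, was the member that rose. It read 81.9 and 85.3 FPKM in wild-type sham libraries against 106 and 172 after TAC, and 103 and 106 in Piezo1-Cko sham libraries against 179 and 162 after TAC. The lowest TAC library, WT TAC replicate 1 at 106.1, was just above the highest sham library, Cko sham replicate 2 at 105.7. Tpm4 rose 1.62-fold on average (log2 fold change 0.70, SE 0.153, adjusted p = 0.0175). This was lost without Cko sham replicate 1 or 2 or Cko TAC replicate 1 (adjusted p up to 0.0663). By genotype the log2 value was 0.69 in wild type (SE 0.216, adjusted p = 0.0725) and 0.71 in Piezo1-Cko (SE 0.216, 0.119).

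Fibroblast markers, taken as a sum, rose after TAC as Tpm4 did, but not library by library. The 8 genes of that list summed to 191 to 326 FPKM in the sham libraries and 426 to 896 in the TAC libraries, and 5 of 8 rose on average over both genotypes (4 in wild type, 1 in Piezo1-Cko), with a median log2 fold change of 1.34 on average. Col3a1, a fibrillar collagen, rose 4.69-fold (adjusted p = 0.00185). Its highest library, WT TAC replicate 1 (211 FPKM), had the lowest Tpm4 of the TAC libraries (106.1). Other genes of the list overlapped between surgeries. Dcn was at 89.4 to 165 FPKM in sham and 103 to 145 in TAC. Tcf21 was at 3.03 to 7.25 against 5.31 to 7.66, and Pdgfra at 3.73 to 5.32 against 4.48 to 6.68. The 6 macrophage markers summed to 239 to 266 FPKM in sham and 333 to 461 in TAC, and all 6 rose on average. With 1 library left out, 4 to 6 fibroblast and 3 to 6 macrophage genes passed. Their part in the Tpm4 result was not tested.

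Tpm2 and Tpm3 varied widely within groups, and neither passed a test with all 8 libraries. Tpm2, a tropomyosin of skeletal and smooth muscle, read 13.7 and 49.6 FPKM in wild-type sham libraries against 16.2 and 18.8 after TAC, and 18.9 and 26.6 in Piezo1-Cko sham libraries against 26.9 and 30.7 after TAC. WT sham held both its lowest and its highest library. The log2 fold change after TAC was -0.57 in wild type (SE 0.506, adjusted p = 0.458), 0.35 in Piezo1-Cko (0.735) and -0.11 on average (0.841; it turned to 0.11 under scaling to total reads). In wild type it was -1.48 (adjusted p = 0.0452) without WT sham replicate 1 and 0.34 without WT sham replicate 2. On average it was -0.57 (0.0407) and 0.35 without the same libraries.

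Some smooth muscle genes followed the same libraries as Tpm2. Acta2, smooth muscle actin, was at 57.0 FPKM in WT sham replicate 1 and 258 in WT sham replicate 2, the lowest and the highest of the 8, as for Tpm2. Myh11, smooth muscle myosin, was at 8.12 and 36.2 there and at 11.5 to 19.7 elsewhere. Cnn1 (1.13 and 15.6 FPKM) and Tagln (0.354 and 1.63, near the floor) also had their lowest and highest values in these 2 libraries. Smtn was highest in WT sham replicate 2 as well (39.0), but not lowest in replicate 1. Others of the list had their highest value elsewhere: Rgs5 in Cko TAC replicate 2 (247 FPKM), Pdgfrb in WT TAC replicate 1 (27.1) and Notch3 in WT TAC replicate 2 (11.3). The whole list of 8 smooth muscle and pericyte genes summed to 282 and 581 FPKM in WT sham, 326 to 408 in WT TAC, 384 to 454 in Cko sham and 402 to 491 in Cko TAC. Their part in the Tpm2 values was not tested.

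**Figure D2:**
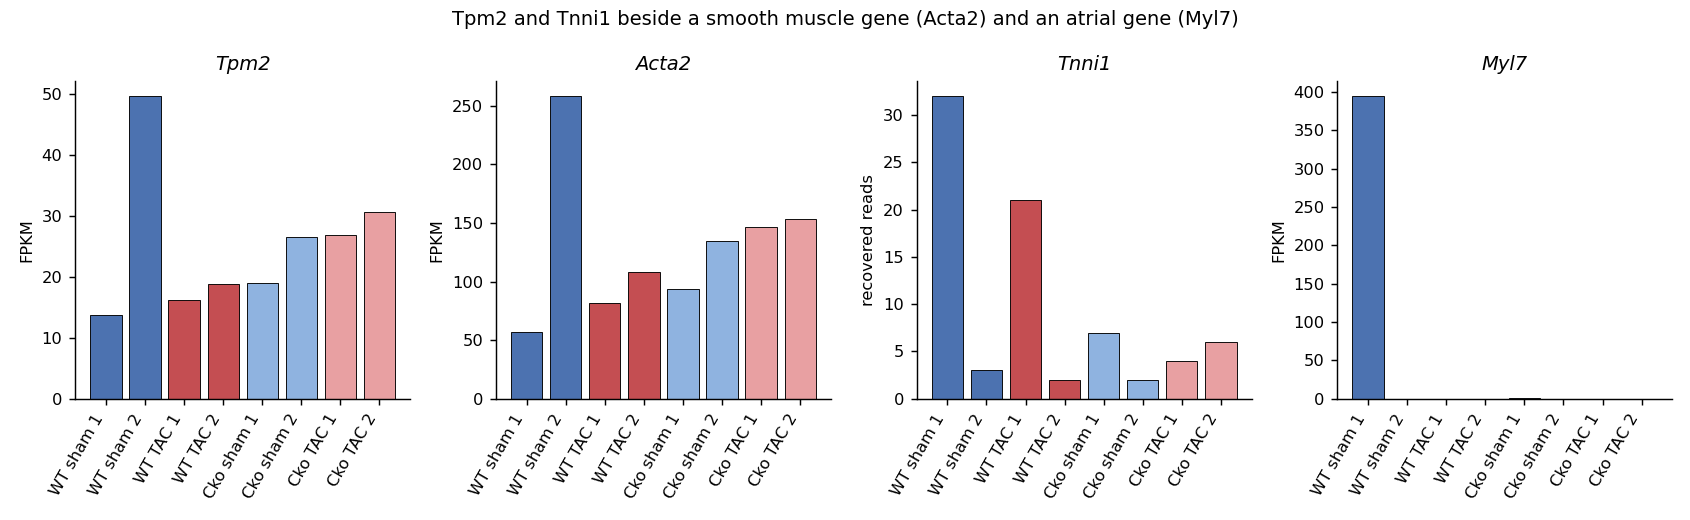
Bars give, for each of the 8 libraries (x axis), FPKM of Tpm2, Acta2 and Myl7 and recovered reads of Tnni1, each on its own y axis from 0. Tpm2 and Acta2 share their lowest library (WT sham 1) and their highest (WT sham 2), while Myl7 is high in WT sham 1 only, 1 of the 2 libraries with most Tnni1 reads.

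Tpm3, which encodes a slow skeletal tropomyosin and cytoskeletal forms, read 5.33 and 13.3 FPKM in wild-type sham libraries against 16.4 and 21.1 after TAC, and 14.3 and 9.55 in Piezo1-Cko sham libraries against 28.7 and 11.99 after TAC. The wild-type groups did not overlap and the Piezo1-Cko groups did. Its log2 fold change was 1.09 in wild type (SE 0.496, adjusted p = 0.168), 0.65 in Piezo1-Cko (0.494) and 0.87 on average (SE 0.350, 0.107). On average it passed only without Cko TAC replicate 2 (adjusted p = 0.0427).

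Titin had the smallest fold change of the 9 in each genotype. Ttn read 22.8 and 19.7 FPKM in wild-type sham libraries against 19.4 and 17.7 after TAC, and 15.04 and 16.6 in Piezo1-Cko sham libraries against 12.3 and 16.6 after TAC. The log2 fold change after TAC was -0.19 in wild type (SE 0.166, adjusted p = 0.452), -0.14 in Piezo1-Cko (SE 0.166, 0.666) and -0.17 on average (SE 0.117, 0.323). These 3 turned to 0.04, 0.06 and 0.05 when libraries were scaled to total reads, which moved the median of all genes to between 0.18 and 0.21, and were -0.17, -0.12 and -0.15 relative to that median. All 4 Piezo1-Cko libraries were below all 4 wild-type libraries, as in 2.35% of all genes (0 of the 9 lay above, beside 1.72%), with the log2 difference between genotypes at -0.41 under sham (SE 0.166, adjusted p = 0.619) and -0.37 under TAC (SE 0.166, 0.559), neither passing.

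**Figure D3:**
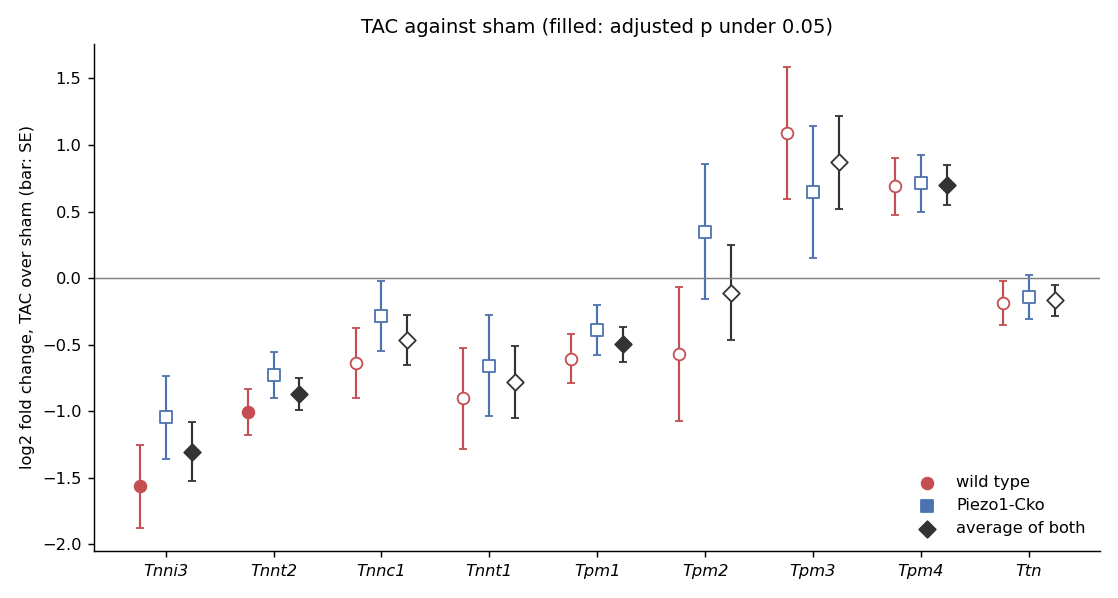
Points give the log2 fold change of TAC over sham (y axis, bars 1 SE) of the 9 tested genes in wild type (circles), Piezo1-Cko (squares) and averaged over both (diamonds), filled where the adjusted p was under 0.05. Tnni3 and Tnnt2 are filled in wild type, those and Tpm1 and Tpm4 on average, and none in Piezo1-Cko.

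By comparison, the counts were as follows. After TAC in wild type, 2 of the 9 tested genes were lower and 0 higher, where 7.65% of all tested genes were lower, 5.57% higher and 13.2% changed either way. Their median log2 fold change was -0.60 beside 0.01 over all genes. Under scaling to total reads 2 were lower and 1, Tpm4, higher, and all genes split into 564 lower and 1808 higher in place of 1066 and 776. In Piezo1-Cko 0 of 9 passed, beside 0.546% of all genes lower, 0.948% higher and 1.49% either way (3 of the 9 had an unadjusted p under 0.05, as had 3036 of the 13928 genes), with a median of -0.29 beside -0.000912. Averaged over both genotypes 3 were lower and 1 higher, beside 13.5% and 11.9% of all genes and 25.4% either way, with a median of -0.46 beside 0.01. The average reuses the libraries of both genotypes and adds no independent evidence to either.

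Libraries of the 2 surgeries did not overlap for 6 genes lower (beside 30.9% of all genes) and 2 higher (31.3%) in wild type. In Piezo1-Cko this held for 4 lower (28.3%) and 2 higher (28%). With 4 TAC against 4 sham libraries, 3 genes lay lower throughout (14.6%) and 1 higher (13.1%). Without the 2 wild-type libraries that stand apart, 0 of the 9 passed in wild type and 3 on average.

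**Figure D4:**
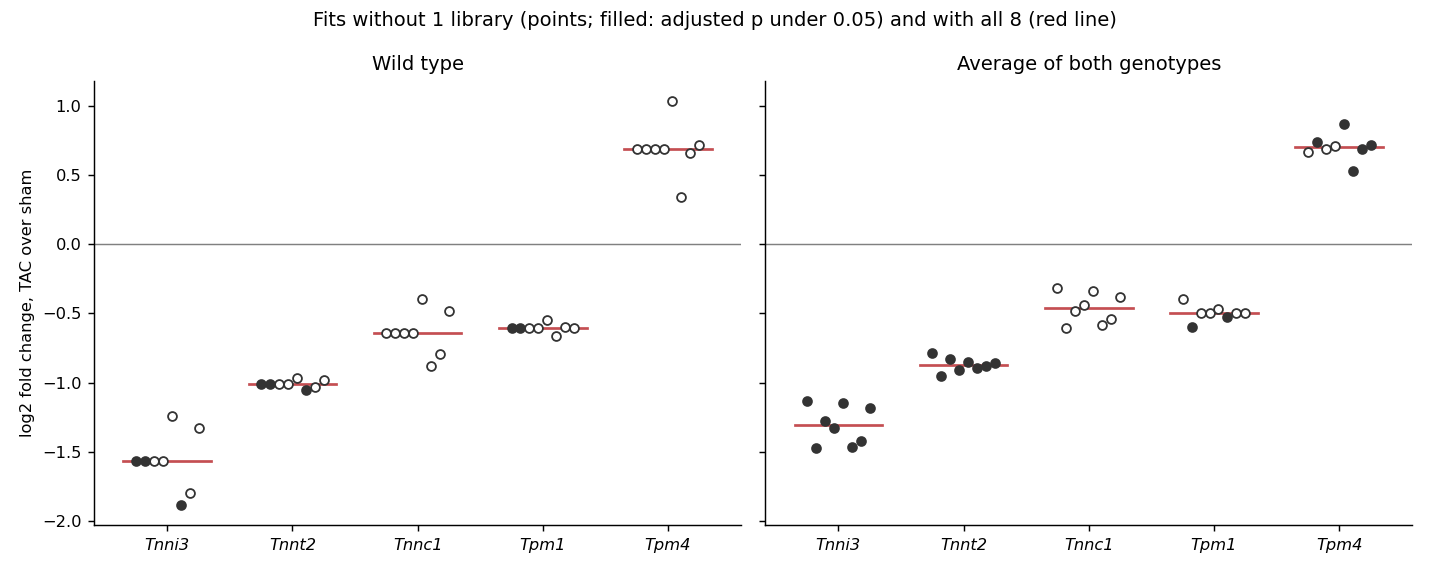
Each point is the log2 fold change of TAC over sham (y axis) for 1 of 5 genes when 1 of the 8 libraries was left out, filled where the adjusted p stayed under 0.05, with a red line for all 8 libraries. In wild type (left) Tnni3 and Tnnt2 are filled in 3 of 8 fits each, and averaged over both genotypes (right) they are filled in all 8.

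Piezo1-Cko was compared with wild type to ask whether the allele changed these genes. Under sham 0 of the 9 passed, beside 0.0144% of all genes higher and 0.0215% either way, and 1, Ttn, had an unadjusted p under 0.05, as had 1069 of the 13928 genes. The log2 differences ran from -0.41 for Ttn to 0.44 for Tpm3 (SE 0.496, adjusted p = 0.921). Tnnt2 at -0.30 (SE 0.172, 0.785), Tpm1 at -0.11 and Ttn had both Piezo1-Cko libraries below both wild-type ones (20.3% of all genes), and Tpm4 at 0.31 (SE 0.216, 0.819) had them above (19.3%). Under TAC 0 of 9 passed, as did 0 of all genes by limma (1269 genes, none of them of this group, had an unadjusted p under 0.05). There Tpm2 at 0.70 (SE 0.506, adjusted p = 0.679) was the highest difference and had no overlap between genotypes, as had 20.3% of all genes, while Ttn had the Piezo1-Cko libraries below (19.4%).

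The response to TAC was not shown to differ between genotypes for any of the 9, beside 0.00718% of all genes. The difference of the responses ran from -0.44 for Tpm3 (SE 0.701, adjusted p = 0.950) to 0.92 for Tpm2 (SE 0.715, 0.911) on the log2 scale. For Tnni3 it was 0.52 (SE 0.441, 0.911) and for Tnnt2 0.28 (SE 0.244, 0.911). For Tpm4 it was 0.02 (SE 0.306). The standard errors of the 9 differences, from 0.234 for Ttn to 0.715 for Tpm2, set what 2 libraries per group could detect. The genotype comparisons share their libraries with the TAC comparisons.

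The balance between troponin subunits was read as ratios within each library. The ratio of Tnni3 to Tnnc1 FPKM was 1.14 and 1.28 in wild-type sham libraries against 0.603 and 0.672 after TAC, and 1.28 and 1.14 in Piezo1-Cko sham libraries against 0.692 and 0.736 after TAC. It was 1.21 ± 0.0815 (SD, n = 4) over the sham libraries and 0.676 ± 0.0555 (SD, n = 4) over the TAC libraries. Tnni3 thus stood above Tnnc1 in each sham library and below it in each TAC library per listed length. Per principal transcript the ratio was 1.78 to 2.01 in sham and 0.945 to 1.15 in TAC. Another length multiplies every library by the same constant, so the place relative to 1 depends on the length. The ratio of Tnnt2 to Tnnc1 overlapped, at 0.377 to 0.497 in sham and 0.275 to 0.402 in TAC, as did that of Tnni3 to Tnnt2, at 2.30 to 3.10 and 1.501 to 2.68.

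Among tropomyosins, Tpm1 made up 91.1% to 93.9% of the summed FPKM in sham and 80.3% to 87.6% in TAC. The share of Tpm4 was 4.93% and 5.02% in wild-type sham libraries against 9.46% and 13.5% after TAC, and 6.48% and 6.66% in Piezo1-Cko sham libraries against 15.1% and 10.99% after TAC. Its mean was 5.77% ± 0.925 (SD, n = 4) in sham and 12.2% ± 2.50 (SD, n = 4) in TAC, with no overlap. Per principal transcript, of which the listed length is 3.42 times for Tpm1 and 1.04 times for Tpm4, the means were 1.85% and 4.13%. Tpm2 held 0.822% to 2.92% and Tpm3 0.321% to 2.41% over the 8 libraries. These ratios and shares are a description without a test.

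**Figure D5:**
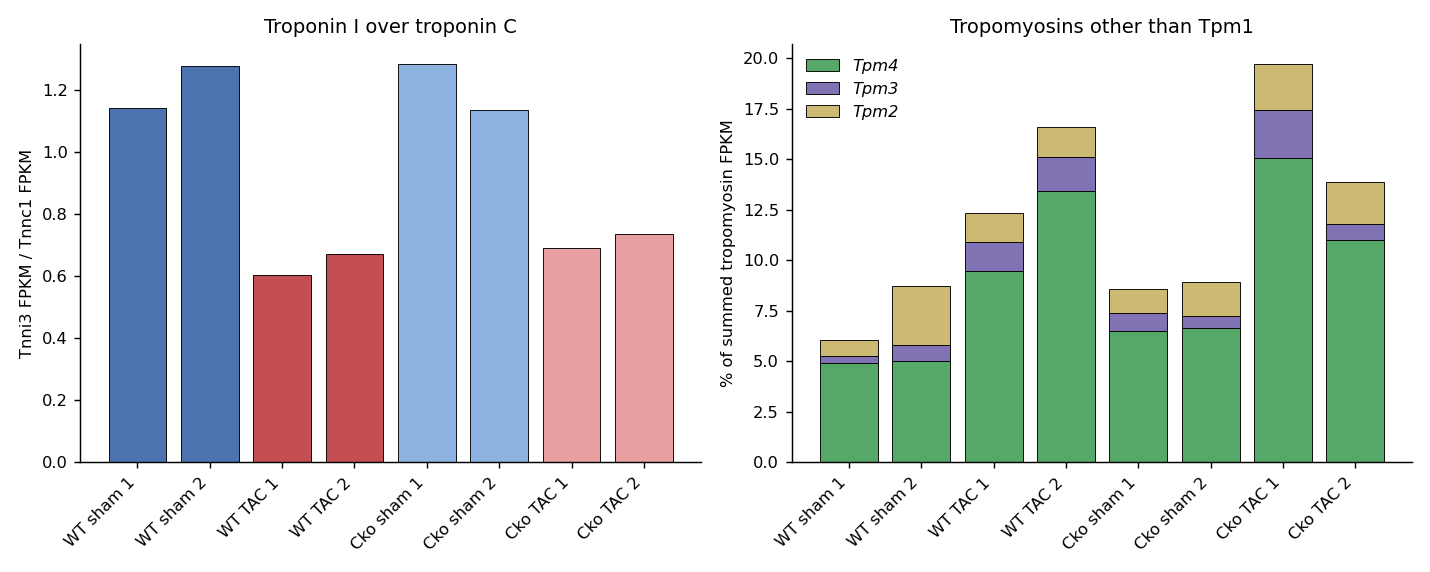
The left panel gives the ratio of Tnni3 to Tnnc1 FPKM per library, and the right panel stacks the shares (%) of Tpm4, Tpm3 and Tpm2 in the summed FPKM of the 4 tropomyosins. The ratio is at least 1.14 in sham and at most 0.736 in TAC, and the Tpm4 share per listed length is at most 6.66% in sham and at least 9.46% in TAC.

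Genes most like each member were found by Pearson's r of log2(FPKM + 0.5) over the 8 libraries, among 5909 genes with a mean of at least 5 FPKM. The libraries share the 2 surgeries, so genes that differ between them score high with each other. Tnni3 was most like Ndufb10 (r = 0.999), Atp5g3 (0.997) and Ndufb5 (0.997), which encode subunits of respiratory complex I and of ATP synthase. Tnnt2 was most like Akirin2 (0.994), Tpm1 like Dnajc7 (0.995), Tnnc1 like Timm50 (0.985), Tpm2 like Acta2 (0.982), Tpm3 like Blmh (0.988), Tnnt1 like Lysmd2 (0.983), and Ttn like Asrgl1 (0.954), the lowest of these. Tpm4 was most like Fkbp1a (0.983) and Ptbp1 (0.979), a repressor of splicing. Within the group r was 0.965 for Tnni3 and Tpm1, 0.958 for Tpm1 and Tnnt2, 0.940 for Tnni3 and Tnnt2, and -0.845 for Tnnt2 and Tpm4.

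Among the other genes of the thin filament, actin of skeletal type stood out by size. The counts of this and the other lists stand beside 13.2% of all tested genes passing in wild type. The share was 1.49% in Piezo1-Cko and 25.4% on average. Of 11 tested partners, 1 rose and 1 fell in wild type, 0 in Piezo1-Cko, and 1 rose and 3 fell on average (1 to 2 fell with 1 library left out), with a median log2 fold change of -0.15 beside 0.01 over all genes. Acta1, skeletal actin, rose 8.75-fold on average (adjusted p = 0.00563), and Tmod4, a cap of the filament's pointed end, fell 2.13-fold (0.00641), both whichever library was left out (4 of 8 fits each in wild type alone). Actc1, cardiac actin, was at 3937 to 5468 FPKM with a log2 fold change of 0.09 that did not pass.

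Of 10 thick filament and M-band genes, 0 rose and 2 fell in wild type, 0 in Piezo1-Cko, and 0 rose and 4 fell on average (0 to 4 with 1 library left out), with a median of -0.28. Myl2, the ventricular regulatory light chain, fell 1.97-fold on average (adjusted p = 0.0119), and Myh6, the adult myosin heavy chain of the mouse heart, 1.66-fold (0.0175). Both calls were lost without Cko sham replicate 1 (adjusted p = 0.0559 for Myl2), and that of Myh6 also without Cko sham replicate 2 or Cko TAC replicate 1 (up to 0.0739).

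Titin's partners at the Z-disc and I-band included several that rose with Acta1. Of 12 tested, 2 rose in wild type, 1 in Piezo1-Cko and 4 on average (1 to 4 with 1 library left out), and 0 fell, with a median of -0.01 on average. Ankrd1, a titin-binding ankyrin repeat protein of the I-band, was at 209 to 451 FPKM in sham and 1404 to 3269 in TAC, rose 5.87-fold on average (adjusted p = 0.00362) and passed whichever library was left out (5 of 8 fits in wild type and 2 of 8 in Piezo1-Cko). Fhl1, a LIM protein that binds titin, rose 2.97-fold (0.0131), lost only without Cko sham replicate 1 (0.0543). Ankrd2 rose 6.76-fold (0.0227), a call that depended on single libraries. It was near the floor in sham, at 0.119 to 0.769 FPKM. After TAC it was at 0.440 and 5.77 in wild type, overlapping WT sham, and at 26.9 and 6.52 in Piezo1-Cko.

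Of 10 splicing regulators, 1 fell in wild type (Rbm24, in 2 of 8 fits with 1 library left out), 0 passed in Piezo1-Cko, and 1 rose and 2 fell on average (0 to 3 and 0 to 2 with 1 library left out), with a median of 0.12. Ptbp1 rose 1.61-fold on average (adjusted p = 0.0115), lost only without Cko sham replicate 1 (0.0519). Rbm20, the main splicing regulator of titin, fell 1.26-fold (0.0430), a call that held in 1 of 8 fits with 1 library left out. Of 11 kinases of troponin I and titin, 1 fell in each genotype, Tnni3k, a kinase that binds cardiac troponin I. It was at 28.5 to 32.6 FPKM in sham and 17.3 to 20.8 in TAC and fell 1.61-fold on average (adjusted p = 0.00385), in all 8 fits with 1 library left out (2 of 8 in wild type and 3 of 8 in Piezo1-Cko), while 5 other kinases rose on average (0 to 4 with 1 library left out) and the list had a median of 0.25. Of all genes, 7.65% fell in wild type, and 11.9% rose and 13.5% fell on average, beside which the counts of the splicing list do not stand out. None of the 5 lists had a gene passing for genotype or interaction by limma.

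Cardiomyocyte markers outside the group moved with Tnni3, Tnnt2 and Tpm1. The 10 genes of that list, all well above 0, summed to 24423 to 25772 FPKM in sham and 15904 to 19774 in TAC, with 3 lower in wild type, 0 in Piezo1-Cko and 7 on average (1 to 7 with 1 library left out) and a median log2 fold change of -0.58 on average. Tnni3 at -1.30 and Tnnt2 at -0.87 lay below that median and Tpm1 at -0.50 above it. Endothelial markers gave 0 calls after TAC, and red blood cell markers 1 lower on average. The 5 atrial markers, with Bmp10 at 0 in all libraries, summed to 98.9 to 590.1 FPKM in sham and 516 to 1856 in TAC, of which Nppa, the atrial natriuretic peptide gene, made up 112 to 1855 in wild type. The part of cell makeup in these results was not tested.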

How the data were processed

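FPKM of 54532 genes in 8 libraries are the values of the authors' deposited table, although its name says counts. Per the labels' protocols, RNA was extracted with Trizol and libraries were made with a NEBNext Ultra kit. The submitters' processing notes list featureCounts 1.5.0-p3, Bowtie 0.12.2 and CASAVA 1.8, as well as mm10 and mm8, without saying what each was used for, and the strand setting is not given in the sources used here. Multiplying a deposited FPKM by the gene length in the same table gave whole multiples of a constant of each library, with 100% of the nonzero values less than 0.01 reads off, and so the recovered reads. The library sizes behind the FPKM were 0.886 to 1.10 times the total of these reads.

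Libraries were grouped by the genotype and surgery in the labels. limma 3.58.1 (R 4.3.3, statmod 1.5.0) was fitted to log2(FPKM + 0.5) of 13928 genes in all 8 libraries, with 1 mean per group, an intensity trend and robust moderation (4 residual degrees of freedom), two-sided, with Benjamini-Hochberg adjustment over all tested genes and a threshold of 0.05. A fold change is on that scale and understates the change of low genes. The steps were run on simulated data with known changes, 1 fixed dispersion for all genes and no library standing apart. That run checks the code and not the calls in these libraries. The 2 libraries of a group differed by more than counting noise (chi-square per degree of freedom 17.9 to 46.6). Members, gene lists and tests were chosen with earlier results of these data known. Named are all 10 members and, from each list of partners, regulators and cell type markers, up to 3 passing genes per direction, from which the text takes examples. Actc1, Ryr2, Acta2, Myh11, Cnn1, Tagln, Myl7, Pvalb, Mylpf, Tnni2, Tnnt3, Dcn, Tcf21, Pdgfra, Rgs5, Notch3, Myh7 and Nppa were named after their values were seen. Sequences are from RefSeq (GRCm38.p6), and pseudogene copies were found with minimap2 2.31-r1302 (50% or more of the copy aligned, at 90% identity or more).

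Alternatives were other pseudocounts, filters and scalings, limma-voom on recovered reads, only the 4 libraries compared, a block for the replicate number, fits without each library and without both wild-type libraries that stand apart. Ratios were also taken from reads not divided by length and, chosen after seeing the data, per principal transcript and with each library left out.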

Additional observations from a re-analysis of the deposited data

How the results depend on the processing

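With 2 libraries per group, calls depended on single libraries. Leaving out 1 library gave 0 to 3 genes of the group (2 with all 8 libraries) and 74 to 2120 of all genes (1842) passing after TAC in wild type, 0 to 1 (0) and 0 to 387 (208) in Piezo1-Cko, and 2 to 6 (4) and 1332 to 3669 (3537) on average. It gave 1 to 4 genes (3) for genotype under sham, 0 to 21 (0) under TAC and 1 to 3 (1) for the interaction, with 0 of the group in each. Leaving out both wild-type libraries that stand apart gave 0 of the group and 1 gene in wild type, 423 genes in Piezo1-Cko, 1851 on average and 1 for genotype under TAC. No filter on low values gave 1 of the group and 247 genes in wild type, 0 genes in Piezo1-Cko, 1927 on average, 1 for genotype under sham and 2 for the interaction. Only the 4 libraries compared gave 0 of the group and 365 genes in wild type, 1 (Tpm4) and 466 in Piezo1-Cko, and 1 gene for genotype under TAC. The stricter filter gave 1 gene for genotype under TAC and 2 for the interaction, and limma-voom 390 genes in Piezo1-Cko. A fit without 1 library leaves 1 in its group, and the fit without both that stand apart leaves 1 in each wild-type group. The cause of the shifts in these counts was not tested.

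Scaling to total reads moved the median log2 fold change of all genes to 0.21, 0.18 and 0.19 in wild type, Piezo1-Cko and on average. It gave 1808 higher and 564 lower genes in wild type (776 and 1066 as deposited), 444 and 70 in Piezo1-Cko (132 and 76), and 3685 and 969 on average (1657 and 1880), with 1 gene of the group, Tpm4, passing in Piezo1-Cko (514 genes in all). Relative to those medians Tnni3 was at -1.54, -1.01 and -1.28 and Tpm4 at 0.71, 0.74 and 0.73. Ttn came to 0.036, 0.063 and 0.049 and Tpm2 on average to 0.11, a change of sign that the shift of all genes makes: relative to the medians they were at -0.17, -0.12 and -0.15, and at -0.089.

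The other changes of sign were in values that did not pass. With 1 library left out, the log2 fold change of Tpm2 ran from -1.48 to 0.34 in wild type and from -0.57 to 0.35 on average, that of Tnnc1 in Piezo1-Cko from -0.58 to 0.0072 and that of Ttn from -0.35 to 0.065. For Tpm3 it ran from -0.18 to 1.06 for genotype under sham and from -1.06 to 0.18 for the interaction, which was 0.17 without Cko TAC replicate 2. Without both libraries that stand apart these were -0.18 and 0.0045. Of 27 genotype and interaction values of the group none passed in any alternative run (lowest adjusted p = 0.206), and 11 of the 18 not given singly here changed sign in at least 1, so their signs are not stable.

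Replicate numbers did not pair the samples across all groups: the differences between replicates correlated by 0.0256 to 0.248 over the 6 pairs of groups. The highest value, 0.248, was that of WT sham and WT TAC, whose replicates 1 stand apart, followed by WT sham and Cko TAC at 0.131. A factor shared by the wild-type replicates 1 was not tested. With the replicate number as a block, 2 genes of the group passed in wild type, 0 in Piezo1-Cko and 6 on average (Tnnt1, adjusted p = 0.0431, and Tnnc1, 0.0425, were added), with 2187, 236 and 3748 of all genes. For genotype under sham, under TAC and the interaction 0 of the group and 2, 0 and 1 of all genes passed.

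The mean ratio of Tnni3 to Tnnc1 was 2.40 in sham and 1.34 in TAC from reads not divided by length, and 1.90 and 1.06 per principal transcript, and with 1 library left out 1.19 to 1.24 and 0.656 to 0.700. The mean share of Tpm4 was 2.06% and 4.59%, 1.85% and 4.13%, and 5.48% to 6.06% and 11.3% to 13.2% in the same order. Depth limited Tnni1 (2 to 32 reads), which was not tested.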

Other observations

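Some marker genes of pressure overload outside the group differed between the 2 libraries of WT TAC, and not all in the same direction. Nppa was at 1855 and 532 FPKM there and at 112 and 116 in WT sham. Myh7, the slow myosin heavy chain that the stressed mouse heart is known to express again, was at 266 and 56.7 FPKM there against 24.6 and 24.9 under sham, and in Piezo1-Cko at 32.5 and 16.6 against 15.6 and 13.7. WT TAC replicate 1 was the highest of the 8 libraries for both and the lowest for Tnni3 (920.3 FPKM), Tnnt1 (2.27) and Tnnc1 (1526). Ankrd1 was also highest there (3269 FPKM). Acta1 went the other way, with its lowest TAC value there (745 FPKM, with 841 to 1154 in the other TAC libraries). Ankrd2, a stretch-responsive ankyrin repeat gene, was highest in Cko TAC replicate 1 (26.9 FPKM, with 0.119 to 6.52 in the others), the library with the highest Tpm3 (28.7) and Tpm4 (179) and the lowest Tpm1 (956), Tnnt2 (555) and Ttn (12.3). Each of these is 1 library, so nothing was tested on it.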
